A study of Bos taurus with 19 samples.

Results

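The genes examined are ACLY (ENSBTAG00000016740), ACACA (ENSBTAG00000017567) and FASN (ENSBTAG00000015980), the 3 enzymes that make palmitate from citrate in the cytosol. They were taken by identifier and are 3 of the 25670 genes in the count files. Each symbol is the one given with its identifier for this work, since the files hold no symbols. All 3 genes were among the 10064 genes tested. RNA came from the subcutaneous adipose tissue of the flank of 19 male Holstein-Friesian calves slaughtered at a mean age of 126 days, with 1 single-end mRNA library per animal. The 10 high animals grew at a labelled 1.08 kg/day on a generous allowance of milk replacer with concentrates ad libitum. The 9 low animals grew at a labelled 0.5 kg/day on restricted milk replacer and concentrates. The study's own descriptions do not all give the same growth rates, and those of the sample labels are used. Calves were blocked on sire, weight, farm and age before they were allotted to a diet, all were weaned before slaughter, blood vessels were trimmed from the tissue, and the diets were not combined with any genetic change or drug treatment. All calves were euthanized with the same barbiturate. The comparison asks how the plane of nutrition in early life went with the expression of this pathway.

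ACLY cleaves citrate exported from the mitochondria and so supplies acetyl-CoA to the cytosol. ACACA, a biotin-dependent carboxylase, turns acetyl-CoA into malonyl-CoA, the committed step of the pathway. FASN is a large multifunctional enzyme that joins these units into palmitate. In cattle, adipose tissue is the main site of fatty acid synthesis, and acetate, which reaches acetyl-CoA without citrate cleavage, is the main carbon source once the rumen works.

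Between 7656100 and 17691547 reads per animal were counted on genes, and the high libraries were larger (log2 total of low minus high -0.31, two-sided exact permutation test, p = 0.0239). High animals D64 and D75 and the low animal D78 lay at the edge of their diets. Multidimensional scaling without the 3 enzymes compared each pair of libraries on the 500 genes that differed most, with counts scaled by library total. On dimension 1, D64 lay at -0.36 and D75 at -0.32. The other 8 high animals lay between 0.28 and 1.73, and the low animals lay between -1.54 and -0.10, with D78 the highest of them. D64 and D75 thus lay within the range of the low animals. D78 was only the upper end of the low animals, with D70 next at -0.45. The fold changes and the ratios between the enzymes are therefore also given without these 3 animals. Levels are TMM-normalized CPM (read counts scaled to library size with the trimmed mean of M-values). They are not scaled to gene length, so no level of one gene is ranked against that of another.

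All 3 enzymes were lower in the low animals, FASN by the most and ACLY by the least. The quasi-likelihood test of edgeR put the mean in high over that in low at 36.4-fold for FASN, 10.8-fold for ACACA and 2.57-fold for ACLY. Of the 10064 genes tested, 18.5% were called lower in low at an adjusted p below 0.05, and 5.36% were so called with a fold change above 2. All 3 enzymes met both rules. They were chosen with such results known, so their count says nothing further about the pathway. These are RNA levels of whole tissue, in which fewer adipocytes and less RNA per adipocyte cannot be told apart. In stained sections of this tissue, the paper counted far fewer adipocytes in its low than in its high calves, and of smaller diameter. The study also had a further low calf with no library here, so its sections may cover an animal outside these data. The part of adipocyte number in the RNA levels was not tested. The defining markers of adipocytes and of other cells were not analysed here, because they could not be found by identifier, and their part in the results was not tested. The paper itself reported ADIPOQ, PLIN1, FABP4 and LPL, which it cites as adipocyte markers, as lower in its low calves.

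FASN, the synthase itself, took 6719 to 214107 reads (median 71557) in the high and 1239 to 3191 reads (median 2169) in the low libraries. In the high animals its level was 770 in D64, 824 in D75, 1959 in D61, 3498 in D71, 5672 in D63, 6517 in D73, 12832 in D72, 13526 in D74, 14674 in D65 and 14858 in D62. In the low animals it was 127 in D67, 143 in D76, 175 in D69, 179 in D77, 191 in D70, 194 in D68, 217 in D66, 234 in D79 and 400 in D78. The diets did not overlap, although the lowest high animal, D64, was under 2 times the highest low animal, D78. Such a full separation with every low animal below every high one was seen in 1.27% of the genes tested. The means were 7513 ± 5881 (SD, n = 10) in high and 207 ± 79.6 (SD, n = 9) in low. The log2 fold change was -5.18 (SE 0.57, edgeR quasi-likelihood test, adjusted p = 9.83e-06), the 5th lowest of all genes tested. In D65, FASN alone took 1.28% of all counted reads (Wilson 95% interval 1.28 to 1.29%), and in D67 it took 0.0138% (0.0131 to 0.0146%). These intervals cover counting error only.

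ACACA, the carboxylase of the committed step, was also lower in the low animals, with a narrow overlap. Its level in the high animals was 67.6 in D64, 83.5 in D75, 104 in D61, 218 in D71, 318 in D63, 339 in D73, 627 in D74, 725 in D72, 951 in D65 and 999 in D62. In the low animals it was 25.4 in D79, 27.1 in D69, 29.9 in D76, 33.5 in D66, 35.7 in D77, 39.7 in D68, 39.9 in D67, 53.0 in D70 and 85.5 in D78. Only D78 made the diets overlap, since 8 of the 9 low animals lay below the lowest high animal. The means were 443 ± 356 (SD, n = 10) in high and 41.1 ± 18.6 (SD, n = 9) in low. The log2 fold change was -3.43 (SE 0.50, edgeR quasi-likelihood test, adjusted p = 8.77e-05), the 24th lowest of all genes tested. The smallest count behind these values was 252 reads.

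ACLY, the citrate lyase, differed by far less, and its diets overlapped broadly. Its level in the high animals was 172.0 in D64, 187 in D61, 188 in D63, 198 in D75, 296 in D73, 329 in D71, 586 in D74, 593 in D65, 644 in D72 and 927 in D62. In the low animals it was 84.1 in D67, 95.3 in D70, 98.6 in D79, 126 in D66, 126 in D78, 171.8 in D68, 200.1 in D76, 256 in D77 and 281 in D69. The 4 lowest high animals lay within the range of the low animals. The means were 412 ± 260 (SD, n = 10) in high and 160 ± 72.2 (SD, n = 9) in low. The log2 fold change was -1.36 (SE 0.34, edgeR quasi-likelihood test, adjusted p = 0.00438), the 289th lowest of all genes tested. D78, the highest low animal for both FASN and ACACA, was in the middle of the low animals for ACLY. D69 was the highest low animal for ACLY and the second lowest for ACACA.

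**Figure D1:**
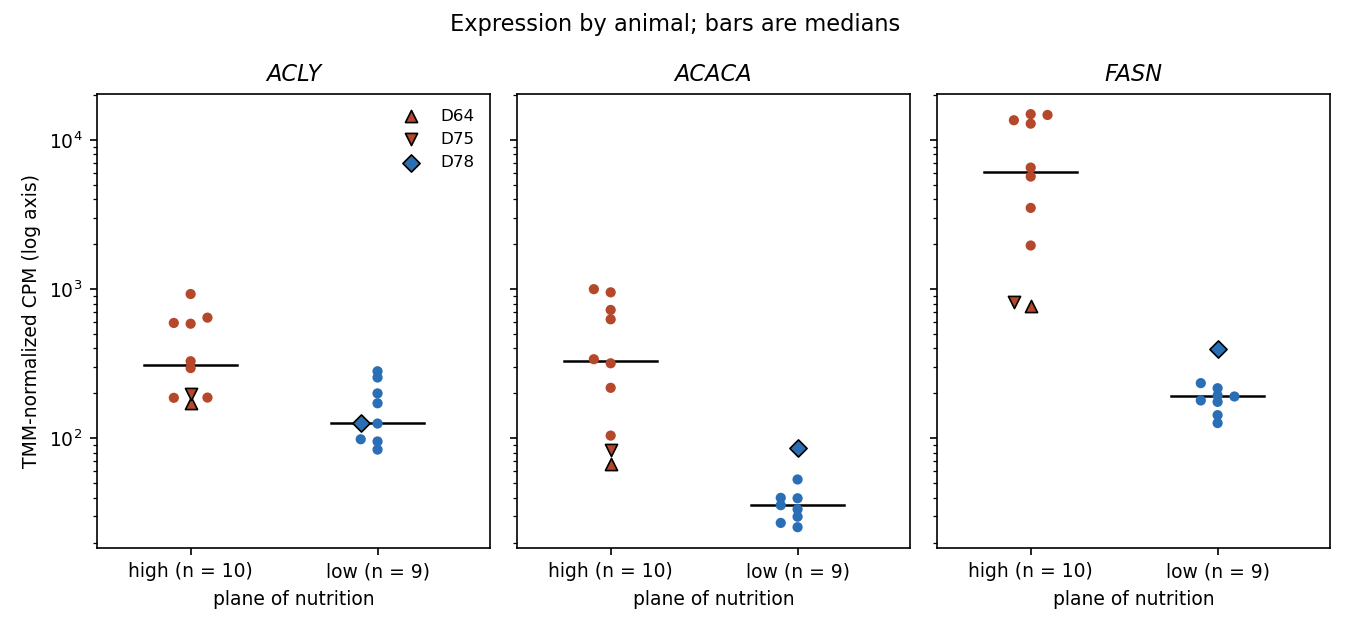
TMM-normalized CPM on a log axis for ACLY, ACACA and FASN, 1 point per animal, by plane of nutrition. Bars are medians, and D64, D75 and D78 have their own markers. FASN separates all 10 high from all 9 low animals, ACACA overlaps through D78 alone, and ACLY overlaps over 4 high animals.

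Estimates that weigh animals equally on the log2 scale were smaller, since the high animals spread over a wide range. The difference in mean log2(CPM + 0.5) was -4.60 for FASN, -2.96 for ACACA and -1.23 for ACLY. Without D64, D75 and D78 the log2 fold change was -5.66 for FASN, -3.92 for ACACA and -1.51 for ACLY, with adjusted p-values of 1.92e-07, 4.06e-06 and 0.00251 in the edgeR quasi-likelihood test. D64 and D75 were the lowest high animals and D78 the highest low animal for FASN and ACACA, so leaving them out had to widen those differences and is no further support for them. Adding log2 library size to the model left FASN at -4.43 and ACACA at -2.78, with adjusted p-values of 0.000392 and 0.00508. ACLY then had a log2 fold change of -0.83 and missed the threshold (edgeR quasi-likelihood test, adjusted p = 0.082). Library size goes with diet here, and its part in the ACLY result cannot be told apart from that of diet.

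These fold changes are relative to the median gene, which TMM scaling left at a log2 fold change of 0.02. The test then called 1881 genes higher and 1865 lower in low. With scaling by total counts the median gene moved to 0.30, and 4615 genes were higher and 950 lower. The 3 enzymes stayed lower under that scaling, at -4.87 for FASN, -3.11 for ACACA and -1.04 for ACLY. In the plot of all genes tested, the bulk of genes lies close to 0, and the log2 fold changes of FASN and ACACA lie in its thin left tail.

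**Figure D2:**
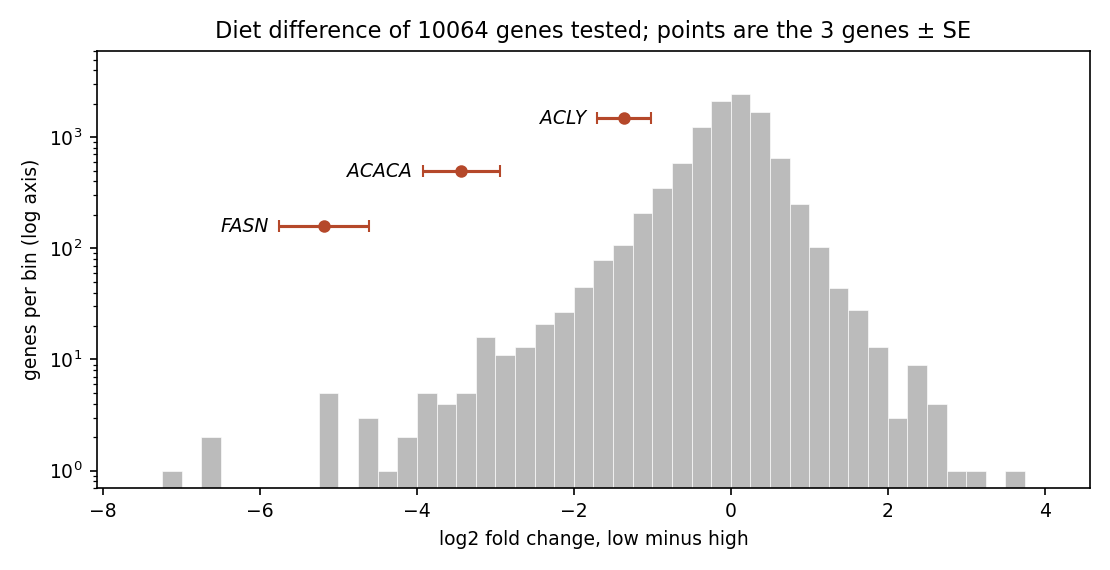
Histogram of the log2 fold change, low minus high, of the 10064 genes tested, with the number of genes per bin on a log axis. The points give ACLY at -1.36, ACACA at -3.43 and FASN at -5.18 with bars of 1 SE, and their height on the vertical axis has no meaning.

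The 3 enzymes did not fall in proportion. Whether one differed more than another was tested on the log2 ratio of 2 genes within each animal, which does not depend on the scaling of the libraries beyond the pseudocount of 0.5 CPM. A ratio of 2 genes still holds their unequal lengths, but its difference between diets does not. There were 3 ratios, and the p-values below are adjusted over them.

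The log2 ratio of FASN to ACACA was 3.99 ± 0.35 (SD, n = 10) in high and 2.34 ± 0.46 (SD, n = 9) in low. It ranged from 3.29 to 4.43 in the high and from 1.65 to 3.18 in the low animals, so the diets did not overlap. The difference of -1.64 means that FASN was lower by a further 3.13-fold beside ACACA (exact permutation test, two-sided, all 92378 splits, p = 2.17e-05, adjusted p = 3.25e-05). This p is the smallest that the test can give. D64 at 3.50 and D75 at 3.29 had the lowest ratios of the high animals, yet both were above all low animals. D78, at 2.22, was the third lowest of the low animals.

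The log2 ratio of FASN to ACLY was 3.79 ± 1.01 (SD, n = 10) in high and 0.42 ± 0.84 (SD, n = 9) in low, again with no overlap. Its difference of -3.37 is a 10.3-fold lower ratio in low (exact permutation test, p = 2.17e-05, adjusted p = 3.25e-05). The log2 ratio of ACACA to ACLY was -0.20 ± 0.75 (SD, n = 10) in high and -1.92 ± 0.95 (SD, n = 9) in low. Its difference of -1.72 was a 3.30-fold lower ratio (exact permutation test, p = 0.000736, adjusted p = 0.000736), and the diets overlapped, with 6 of the 9 low animals below the lowest high animal. Without D64, D75 and D78 the differences were -1.78 for FASN to ACACA, -3.94 for FASN to ACLY and -2.17 for ACACA to ACLY. Each had an adjusted p of 0.000155 (exact permutation test), the smallest that the test can give for the animals left. D64 and D75 had the lowest ratios of the high animals throughout, and D78 had the highest low ratios to ACLY. Leaving out D64 and D75 had to widen every difference, and leaving out D78 those of the ratios to ACLY. These wider differences are therefore no further support. In the tests on all animals, FASN differed between the diets by more than ACACA did, and ACACA by more than ACLY did.

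**Figure D3:**
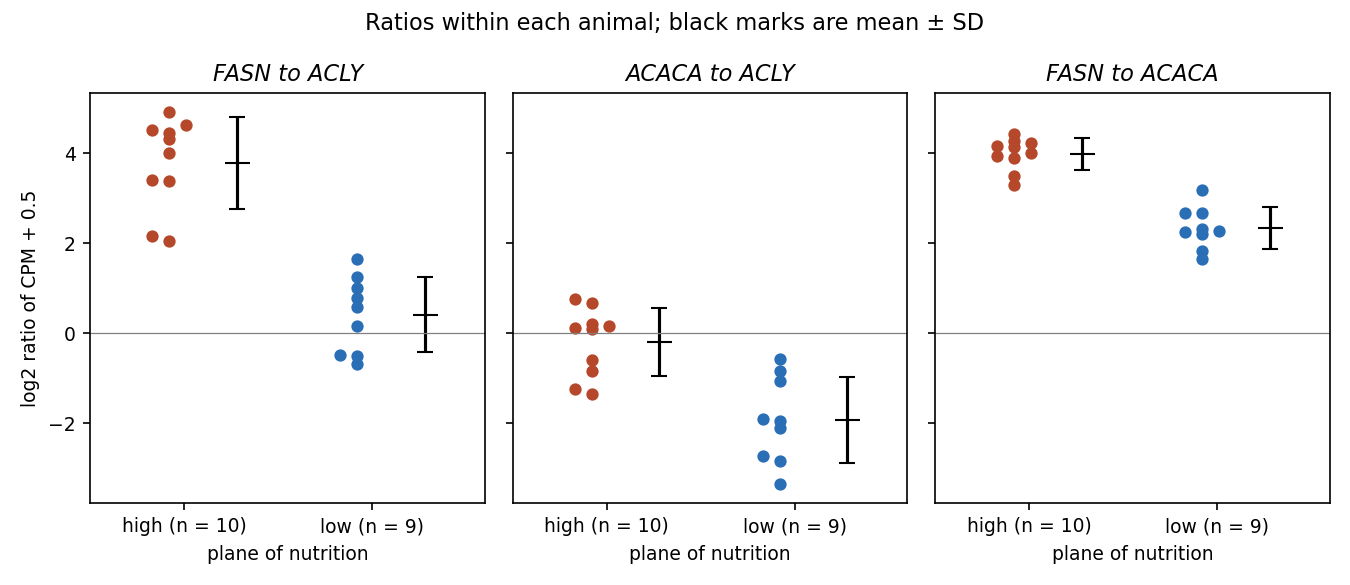
Log2 ratio of FASN to ACLY, ACACA to ACLY and FASN to ACACA within each animal, by plane of nutrition, with mean ± SD in black. The ratio of FASN to ACACA is tightly grouped, from 3.29 to 4.43 in high and from 1.65 to 3.18 in low, and each ratio with FASN separates the diets.

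The high animals differed among themselves far more than the low animals did. The highest FASN level was 19.3 times the lowest in high and 3.16 times the lowest in low. For ACACA these ranges were 14.8 times in high and 3.37 times in low, and for ACLY they were 5.39 times and 3.35 times. On the log2 scale the SD of FASN was 1.67 in high and 0.47 in low, that of ACACA 1.45 and 0.54, and that of ACLY 0.90 and 0.63. The low ranges of FASN and ACACA rested on D78, without which they were 1.85 times and 2.09 times, with SDs of 0.29 and 0.34. The high ranges of these genes rested in part on D64 and D75, the 2 lowest high animals for both. The next lowest was D61, at 1959 CPM for FASN and 104 CPM for ACACA. The difference in spread was not tested.

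Among the high animals the 3 genes varied together, as did many other genes. Of 10063 genes, 652 had a Pearson r above 0.9 with ACACA in these animals, 537 with FASN and 168 with ACLY. Correlations were computed for the 3 pairs of genes and for each gene with log2 library size, in each diet on its own, which made 12 relations over which p-values were adjusted. In the 10 high animals ACACA and FASN had a Pearson r of 0.98 and a Spearman rho of 0.99 (permutation test, adjusted p = 0.00024 for both). ACLY had an r of 0.90 with ACACA (rho 0.90, permutation test, adjusted p = 0.00528 and 0.00516) and of 0.85 with FASN (rho 0.88, permutation test, adjusted p = 0.00528 and 0.00624). With the 2 animals farthest from the median left out, r was 0.99 for ACACA and FASN, 0.86 for ACLY and ACACA and 0.83 for ACLY and FASN. For the pairs with ACLY, where D62 and D72 were left out, adjusted permutation p-values were then 0.0357 for r and 0.0615 for rho.

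No such relation passed the test among the low animals. The r of ACACA and FASN was 0.59 (rho 0.12, exact permutation test, adjusted p = 0.191 and 0.776), and it rested on D78, since it was -0.19 without D78 alone and -0.40 without D78 and D70, the 2 farthest on ACACA. The r of ACLY was -0.33 with ACACA (rho -0.38, exact permutation test, adjusted p = 0.436 and 0.375) and -0.14 with FASN (rho -0.13, exact permutation test, adjusted p = 0.768 and 0.776). Without D69 and D77, the 2 farthest on ACLY, these were -0.13 and -0.003. The difference in correlation between the diets was not tested, and the narrow range of FASN and ACACA in low leaves less to correlate. In the plot of pairs, the high animals follow a line in each panel and the low animals do not.

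**Figure D4:**
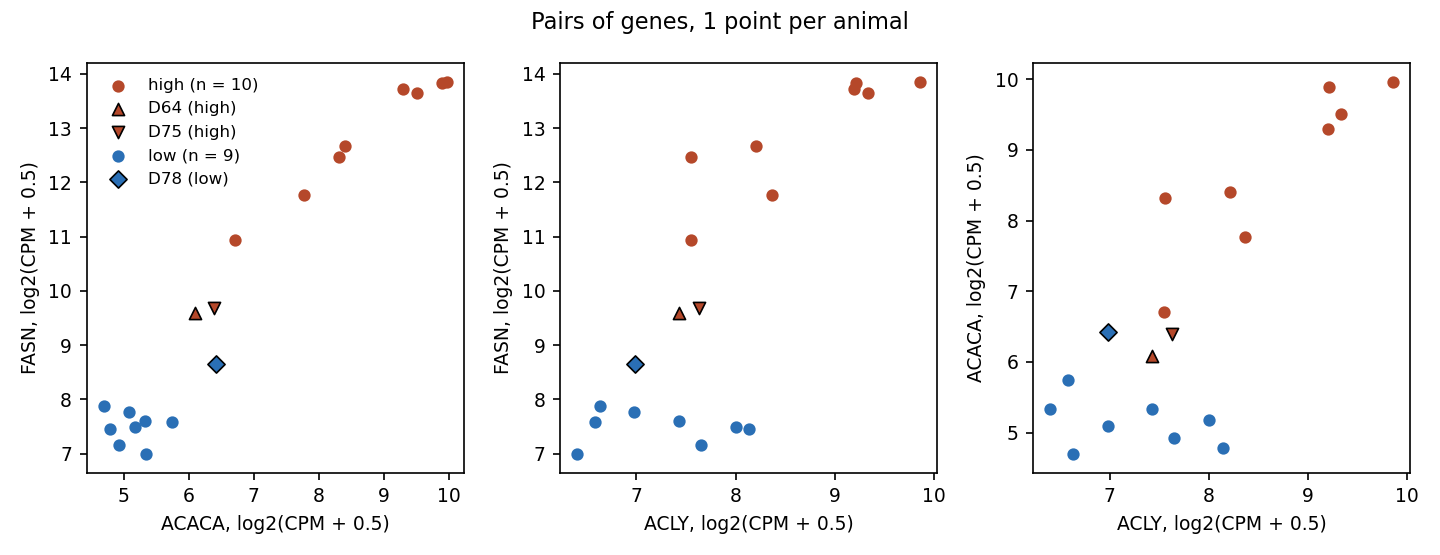
Log2(CPM + 0.5) of each pair of genes, 1 point per animal, coloured by plane of nutrition, with D64, D75 and D78 marked. The high animals lie along a line in each panel (r of 0.98, 0.85 and 0.90 from left to right), and the low animals form a cluster with no such line.

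With library size, FASN and ACACA passed the test in the high animals by Pearson but not by Spearman correlation, and ACLY passed by neither. The r of library size with FASN was 0.76 (rho 0.64, permutation test, adjusted p = 0.0209 and 0.127), with ACACA 0.75 (rho 0.67, permutation test, adjusted p = 0.0262 and 0.115) and with ACLY 0.62 (rho 0.61, permutation test, adjusted p = 0.104 and 0.137). Without the 2 animals farthest on library size, D65 and D72, these were 0.72, 0.65 and 0.44, with adjusted permutation p-values for r of 0.142, 0.163 and 0.463. In the low animals, r with library size was -0.65 for FASN (rho -0.60), -0.55 for ACACA (rho -0.40) and 0.61 for ACLY (rho 0.58), and none passed the exact permutation test (adjusted p from 0.104 to 0.165 for r and from 0.162 to 0.375 for rho). Without the 2 farthest, D78 and D76, these were -0.02 for FASN, 0.09 for ACACA and 0.72 for ACLY. The part of library size in the relations between the genes was not tested.

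ACACA and FASN were also close to each other when set against all genes tested. Likeness was the Pearson correlation over the 19 animals after the mean of the animal's diet was subtracted, given as a description, since all genes share the same libraries and scaling. ACACA was the 9th most like FASN of 10063 genes (r = 0.95), and FASN the 21st most like ACACA. Taken by diet, ACACA was 9th for FASN and FASN 15th for ACACA in the high animals (r = 0.98), but 348th and 814th in the low animals (r = 0.59). ACLY was the 917th most like FASN (r = 0.67) and the 1142nd most like ACACA (r = 0.65). In the high animals alone ACLY was 833rd for FASN and 647th for ACACA, and in the low animals 6461st and 7849th. An r above 0.9 was reached by 98 genes with FASN, by 146 with ACACA and by 1 with ACLY, against 22, 67 and 0 with Spearman correlation. Of those found with Pearson correlation, all 98, 145 of the 146 and the 1 were called lower in low, beside 18.5% of all genes tested. Leaving out the enzymes, 59 genes were on both lists, 60.8% of those for FASN and 40.7% of those for ACACA. The gene most like FASN was ENSBTAG00000008528 (r = 0.97), with a log2 fold change of -3.19 (SE 0.45, edgeR quasi-likelihood test, adjusted p = 7.51e-05). The 1 gene with ACLY was ENSBTAG00000015000 (r = 0.90), with a log2 fold change of -0.50 (SE 0.10, edgeR quasi-likelihood test, adjusted p = 0.000695).

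In the RefSeq table of the ARS-UCD2.0 assembly, which is not the assembly of the counts and was used for gene order only, the 3 genes lie on 1 chromosome, each apart from the others. ACLY lies between KLHL11 and ODAD4 with no other gene overlapping its span. FASN lies between CCDC57 and DUS1L, with the microRNA gene MIR10179 overlapping its span. The span of ACACA, between AATF and TADA2A, is overlapped by 3 other genes, of which 1, C19H17orf78, codes for a protein. The strand setting of the counting is not given in the sources used here, so reads where such genes share exons could not be assigned with certainty.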

How the data were processed

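With STAR, the authors mapped reads to the UMD3.1 assembly, kept unique alignments with fewer than 2 mismatches and deposited raw read counts per Ensembl gene from HTSeq, 1 file per animal. No columns were pooled. Animals were grouped by the diet in their titles. Within a diet, the least different pair of libraries still differed by a chi-square of 25.2 per degree of freedom, so none was a duplicate. The test took genes that reached 5 CPM in 9 or more libraries and was run in R 4.3.3 with edgeR 4.0.16 (TMM, robust quasi-likelihood F test, Benjamini-Hochberg, diet as the only term, low minus high). A value of 5 CPM is 38.3 to 88.5 reads. The SE was derived from F, as the size of the log2 fold change over the root of F. Single values were compared by two-sided exact permutation tests. Correlations used all permutations for up to 9 animals and 100000 for 10. The fits were checked on simulated data. These had the same spread between animals for every gene, so the check does not give error rates for the real data.

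The genes, lists and tests were chosen with earlier results of these data known. The rule for named genes was the 3 enzymes in full, genes of the lists and, for each enzyme, the genes with a symbol that were most like it. The pathway and marker lists planned, and ratios to adipocyte markers, were not analysed here. None of the 37063 genes in the RefSeq table carried an Ensembl identifier, so this rule could be kept for the enzymes only. Apart from the genes that neighbour or overlap the enzymes on the chromosome, 2 further genes are named by identifier, those most like FASN and ACLY. These were chosen after their values were seen. The gene most like ACACA is not named. Protein and promoter sequences were not used here. Alternatives were DESeq2 1.42.0, limma 3.58.1, the exact and likelihood ratio tests, other scalings and filters, thinning, library size as a term and leaving out animals. Sequencing lane was not used here.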

Additional observations from a re-analysis of the deposited data

Results flagged for a closer look

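Dixon's test was run on 12 sets of values, the levels and the ratios of the 3 genes in each diet, with 95% critical values, which by chance alone are passed in about 1 of 20 sets. It singled out 2, both from the low animal D78. FASN was 399.6 CPM in D78, where the next low animal had 234, and the gap was 0.605 of the range of the 9 low animals. ACACA was 85.5 CPM in D78, where the next had 53.0, and the gap was 0.54 of the range. On the log2 scale, tried after seeing the data, the gaps were 0.464 and 0.395 of the range and neither passed the critical value of 0.493. The 2 values come from 1 library and are not independent. D78 also had the smallest library, with 7656100 reads, and its part in these values was not tested. Its ACLY level and its ratio of FASN to ACACA were not singled out.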

How the results depend on the processing

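FASN and ACACA kept their direction and an adjusted p below 0.05 in all 14 alternatives of test, scaling, filter, covariate and sample choice, and in all 19 fits that left out 1 animal. FASN ranged from -5.66 to -4.43 on the log2 scale over the alternatives and ACACA from -3.92 to -2.78. ACLY did so in 13 of 14 and missed the threshold with log2 library size in the model (-0.83, edgeR adjusted p = 0.082). Leaving out each animal gave -5.38 to -5.02 for FASN, -3.66 to -3.22 for ACACA and -1.53 to -1.15 for ACLY. The ratios kept their direction and side in 3 alternatives and when each animal was left out (FASN to ACLY -3.56 to -3.23, ACACA to ACLY -1.89 to -1.54, FASN to ACACA -1.75 to -1.56). Scaling without the reads of the 3 enzymes, an alternative added after seeing the data, changed no call of theirs.

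Counts over all genes moved more. Library size in the model gave 2031 called genes in place of 3746, 1031 lower in place of 1865 and 334 lower with a fold change above 2 in place of 539. Total counts gave 950 lower and 314 with the fold change, and no filter gave 1103 with the fold change among 18679 genes. Leaving out each animal gave 3249 to 4006 called, 1656 to 2012 lower and 476 to 636 with the fold change. With Spearman in place of Pearson correlation, 22 genes were above 0.9 with FASN, 67 with ACACA and 0 with ACLY. The correlation of ACACA and FASN in the low animals went from 0.59 to -0.40 without D78 and D70. Leaving out each animal, an alternative also added later, gave r of 0.98 to 0.99 for ACACA and FASN, 0.88 to 0.97 for ACLY and ACACA and 0.83 to 0.93 for ACLY and FASN in high, and -0.19 to 0.75, -0.54 to -0.18 and -0.49 to -0.05 in low. The causes of these moves were not tested. The block on sire, farm, weight and age was not used here. The fits on gene lists and on adipocyte markers were not run, for want of symbols for the identifiers. Each value of the 3 genes rests on at least 252 reads, so depth limits them little, whereas genes near the filter rest on as few as 38.3 reads.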

Other observations

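The counts of genes that went with ACLY are given by diet as a description over few animals. In the 10 high animals, 168 of 10063 genes had a Pearson r above 0.9 with ACLY, and 142 of them (84.5%) were among the genes called lower in low. In the 9 low animals, 79 genes did, of which 3 were called lower, beside 18.5% of all genes tested. For ACACA the share called lower was 82.2% of 652 genes in high and 89.5% of 19 genes in low, and for FASN it was 85.1% of 537 genes in high and 85.7% of 7 genes in low. With Spearman correlation the share for ACLY was 74.2% of 159 genes in high and 6.33% of 79 genes in low. For ACACA it was 79.3% of 783 genes in high and 61.5% of 39 genes in low. For FASN it was 80.2% of 692 genes in high and 66.7% of 3 genes in low. In low, the Pearson r of ACACA with FASN rested on D78 (0.59 with it, -0.19 without it). The part of D78 in the counts was not tested. The difference between the diets in these counts was not tested. The correlation of ACLY with library size in the low animals did not pass the test (r = 0.61, exact permutation test, adjusted p = 0.123), and the part of library size in these counts was not tested.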
